A study of Mus musculus with 9 samples.

Results

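The cytochrome P450 genes were taken by name from the GRO-seq table, as every gene whose symbol is Cyp followed by a family number, a subfamily letter and a member number. This gave 103 of 24505 genes, with pseudogenes (names ending in -ps or -ps2) and the antisense gene Cyp4x1os among them. Cyp51, Tbxas1 and Ptgis are P450 enzymes by function but fall outside the name rule. Of the 103 genes, 69 passed the filter on low values (a value of at least log2 of 10 in at least 2 libraries) and were tested. The other 34 had values between -1.35 and 3.38 and are described only by their level.

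The study followed differentiation in mini-guts, epithelial organoid cultures grown from mouse duodenum. Nascent transcription was read by GRO-seq, which sequences the RNA that engaged polymerases extend in isolated nuclei, with 2 libraries in each of 3 cultures: RANKL, labelled intestinal M cell (the antigen-sampling cell over lymphoid follicles, which the cytokine RANKL is known to induce), ENRI, labelled enterocyte, and WENRC, labelled intestinal stem cell. The histone mark H3K27me3, laid down by the Polycomb complex PRC2, was read by ChIP-seq as 1 pool of 2 libraries for RANKL and 1 library for WENRC. ENRI and WENRC libraries of the same number came from the same mouse, whereas the RANKL libraries carry only a replicate number, so that the spread between them may be technical. Strain, genotype, sex and age of the animals, and the make-up of each medium, are not given in the sources used here.

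P450 enzymes are haem proteins, most of them anchored in the endoplasmic reticulum, that insert an oxygen atom into a substrate with electrons passed on by P450 oxidoreductase. Families 1 to 3 are known mainly for oxidising drugs and other foreign compounds, and in the gut wall they form a barrier in the absorptive enterocyte against swallowed chemicals. Family 4 hydroxylates fatty acids and related lipids, and the remaining families make or break down steroids, bile acids, vitamin D and retinoic acid. Many of the drug-metabolising genes stand in tandem clusters of close paralogs.

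GRO-seq values are the authors' normalized values over the whole gene on a log2 scale, in which genes with few reads are drawn together, so that changes of weakly transcribed genes are understated. Read depth of these libraries is unknown. The labelled cell types were checked on marker lists. Of 7 M cell markers, all 7 were higher in RANKL than in ENRI and 6 were higher than in WENRC. Of 8 enterocyte markers, 7 were lower in WENRC than in ENRI, and of 6 stem cell markers 6 were higher in WENRC than in ENRI. Lgr5, the defining stem cell marker, stood at 8.75 and 8.84 in RANKL, 8.89 and 8.51 in ENRI and 11.64 and 11.99 in WENRC. In RANKL, 4 stem cell markers were higher than in ENRI. Liver is the richest source of P450s, and of 4 hepatocyte markers Alb, Serpina1a and Apoh did not pass the filter (values 1.81 to 3.39), while Ttr was higher in RANKL than in ENRI and WENRC. None of 6 fibroblast markers passed the filter.

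Most P450 genes were transcribed at their highest level in the enterocyte culture. The culture mean was highest in ENRI for 51 of the 69 tested genes, in RANKL for 10 and in WENRC for 8. It was lowest in WENRC for 36, in RANKL for 23 and in ENRI for 10. Over all 16563 tested genes, the highest mean fell in ENRI for 6038, in RANKL for 5387 and in WENRC for 5138. On a scale of log2 value per kb of gene, which allows genes to be compared, the highest means over the 6 libraries were those of Cyp3a13 (6.55), Cyp2d26 (5.99), Cyp2j6 (5.51), Cyp4f14 (5.47), Cyp2t4 (5.35), Cyp2c65 (4.80), Cyp3a11 (4.79) and Cyp4f13 (4.77). The order differed by culture: Cyp3a13 (6.31), Cyp2d34 (5.53) and Cyp2j6 (5.51) led in RANKL, Cyp3a13 (8.18), Cyp2d26 (8.06) and Cyp3a11 (7.34) in ENRI, and Cyp2t4 (5.57), Cyp2c55 (5.26) and Cyp2d26 (5.22) in WENRC. Cyp2t4 was nearly level across the cultures, at 5.25 per kb in RANKL, 5.23 in ENRI and 5.57 in WENRC. In these bulk cultures, fewer cells of a type and less RNA per cell cannot be told apart.

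**Figure D1:**
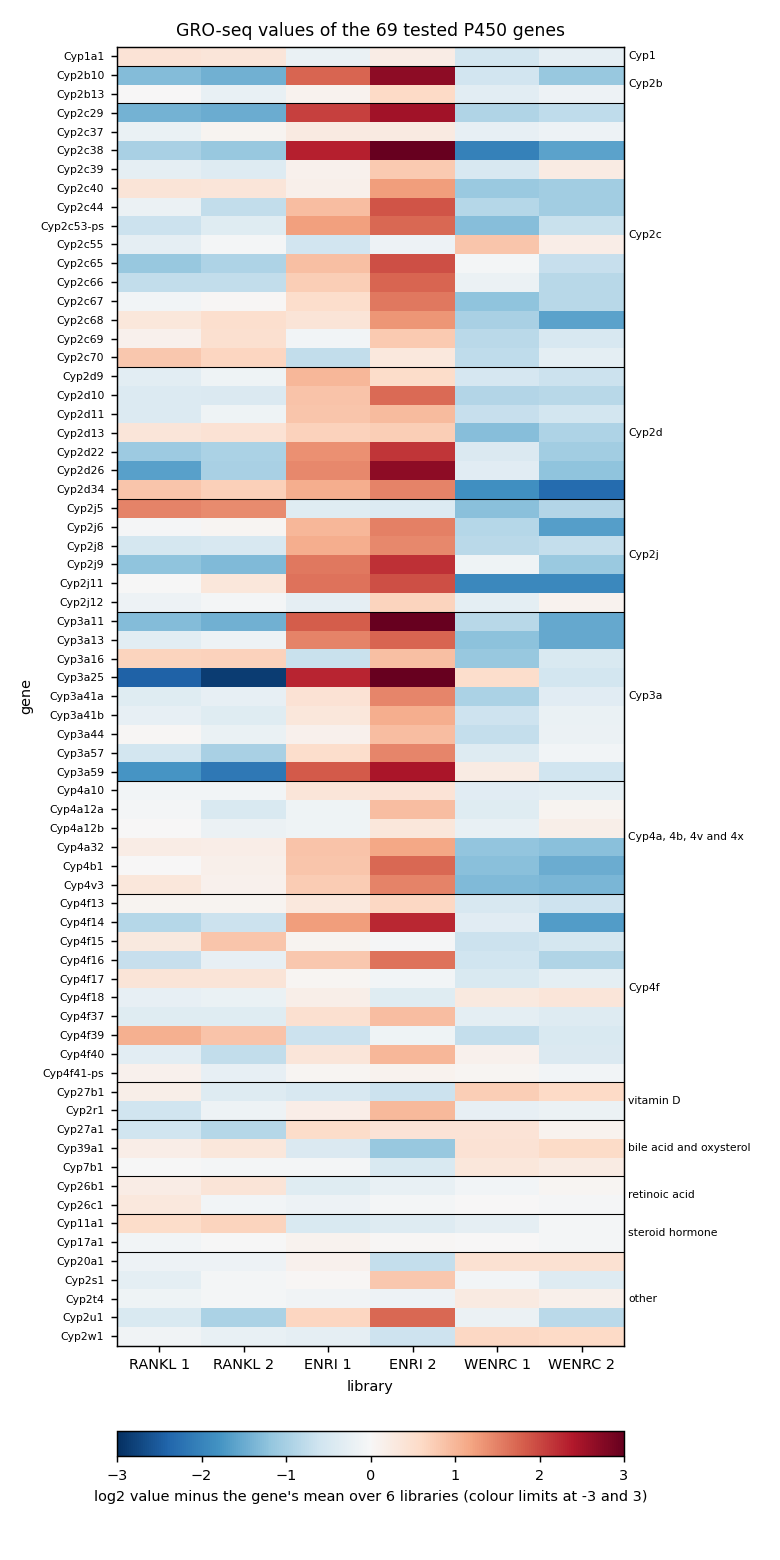
Each row is 1 of the 69 tested P450 genes, grouped by family or role, and each column is 1 GRO-seq library. Colour gives the log2 value minus the gene's mean over 6 libraries, with colour limits at -3 and 3. The red blocks lie in the ENRI columns for most Cyp2b, Cyp2c, Cyp2d, Cyp2j, Cyp3a and Cyp4 genes, whereas Cyp2j5, Cyp4f39 and Cyp11a1 are reddest in RANKL.

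The libraries of a culture did not agree equally well. The median absolute difference between the libraries of a culture, over the 69 genes, was 0.15 on the log2 scale in RANKL, 0.30 in WENRC and 0.59 in ENRI. In ENRI, 56 of the 69 genes were higher in the library of mouse 2, with a median difference of 0.51. The enterocyte markers moved with this difference: the mean of the 8 markers was 11.41 in ENRI 1 and 12.07 in ENRI 2, against 9.96 and 10.18 in RANKL and 8.97 and 8.04 in WENRC. Their part in the P450 values was not tested. The mice also differed in Xist, the RNA of the inactive X chromosome, which stood at 4.52 and 5.42 in the ENRI and WENRC libraries of mouse 1 and between 10.90 and 12.18 in the other 4 libraries. The Y-linked gene Ddx3y was at 8.49 and 8.29 in the libraries of mouse 1 and between 3.28 and 3.60 elsewhere. By these genes mouse 1 reads as male, and mouse 2 and both RANKL libraries as female, though the labels give no sex. Sex is thus partly confounded with culture in both RANKL comparisons, and its part in the P450 changes was not tested. By the file header, reads of a repeated sequencing were combined for RANKL alone, so that sequencing run and RANKL culture cannot be told apart.

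In the M cell culture against the enterocyte culture, most P450 genes that were called were lower. Of the 69 tested P450 genes, 29 were lower in RANKL than in ENRI, where 10.5% of all tested genes were called lower (limma, FDR under 0.05 over all genes). Another 4 were higher, where 10.4% of all tested genes were called higher. The median change was -0.79 for the P450 genes and -0.00 for all tested genes. Of 8 enterocyte markers, 4 were lower in RANKL than in ENRI (Fabp2 by -4.76 and Fabp1 by -2.99 among them) and none was higher, and their part in the P450 changes was not tested. The libraries of RANKL lay wholly below those of ENRI for 44 P450 genes, where 32.3% of all tested genes did so. Lower genes came from several families: 5 of 9 tested Cyp3a genes, 6 of 14 Cyp2c, 5 of 7 Cyp2d, 4 of 6 Cyp2j, 4 of 10 Cyp4f and 2 of 6 of the Cyp4a, Cyp4b and Cyp4v genes. Without RANKL 1 the count of called genes fell from 33 (20.9% of all tested genes were called) to 3 and without RANKL 2 to 1, with 35 and 34 genes at an unadjusted p under 0.05. Without both libraries of mouse 1 it was 54, and 60.9% of all tested genes were then called. The authors' deposited table, by their adjusted p under 0.05, had 33 P450 genes lower (11.0% of all tested genes) and 4 higher (8.55%).

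Between the stem cell and the enterocyte culture the count of called P450 genes was the largest of the 3 comparisons with all 6 libraries in the fit, but the smallest with only the 4 libraries compared (0, against 24 for RANKL and ENRI and 32 for RANKL and WENRC). Here 35 of 69 were lower in WENRC, where 9.74% of all tested genes were called lower, and 3 were higher, where 4.85% were called higher. The median change of the P450 genes was -1.04, and that of all tested genes was -0.01. Since the libraries pair by mouse, the change could be read in each animal: its sign was the same in mouse 1 and mouse 2 for 69 of 69 P450 genes, and for 74.5% of all tested genes. All 7 tested Cyp2d genes were lower in WENRC, as were 9 of 14 Cyp2c, 5 of 9 Cyp3a, 4 of 6 Cyp2j and 4 of 10 Cyp4f genes. These 38 calls (14.6% of all tested genes were called) depended on the RANKL libraries, which enter the same fit and had the smallest spread. With the 4 ENRI and WENRC libraries alone limma called 0 P450 genes and 0 genes in all, and 46 P450 genes had an unadjusted p under 0.05. A block for the mouse in those 4 libraries gave 10 calls. Without RANKL 1, RANKL 2 or WENRC 2 the count was 0 (46, 46 and 44 genes at an unadjusted p under 0.05), without WENRC 1 it was 3, and the authors' deposited table, by their adjusted p, had 36 lower (9.24% of all tested genes) and 3 higher (3.3%).

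Between the M cell and the stem cell culture fewer P450 genes differed, and most of those were higher in RANKL. Of the 69 genes, 14 were higher in RANKL, where 8.53% of all tested genes were called higher, and 3 were lower, where 3.62% were called lower. The median change was 0.14 for P450 genes and -0.01 for all genes, and with upper-quartile recentring it was 0.03 and -0.12. The genes that were higher belonged mainly to Cyp2j (3), Cyp4f (3), the Cyp4a, Cyp4b and Cyp4v group (3) and Cyp2d (2). The count of 17 (12.1% of all tested genes were called) depended on the libraries used: it was 0 without RANKL 1 or RANKL 2 (21 and 20 genes at an unadjusted p under 0.05), 3 without WENRC 1 or WENRC 2, and 31 without ENRI 1 or ENRI 2, which enter only through the shared spread. Without both libraries of mouse 1 it was 38, and the authors' deposited table, by their adjusted p under 0.05, had 21 P450 genes higher (16.7% of all tested genes) and 8 lower (11.1%), 29 in all. Markers of several cell types were also called higher in RANKL than in WENRC, where 8.53% of all tested genes were. These were 4 of 8 enterocyte markers (Apoa1 by 4.57 and Apoa4 by 3.97), 2 of 5 goblet (Muc2 by 3.25 and Clca1 by 2.46), 2 of 3 Paneth and 1 of 3 tuft markers. Another goblet marker, Spink4, was lower in RANKL (-0.90 ± 0.15, FDR = 0.0192). The part of these cell types in the P450 changes was not tested. The 3 comparisons share libraries, and their values are given side by side below for each gene.

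**Figure D2:**
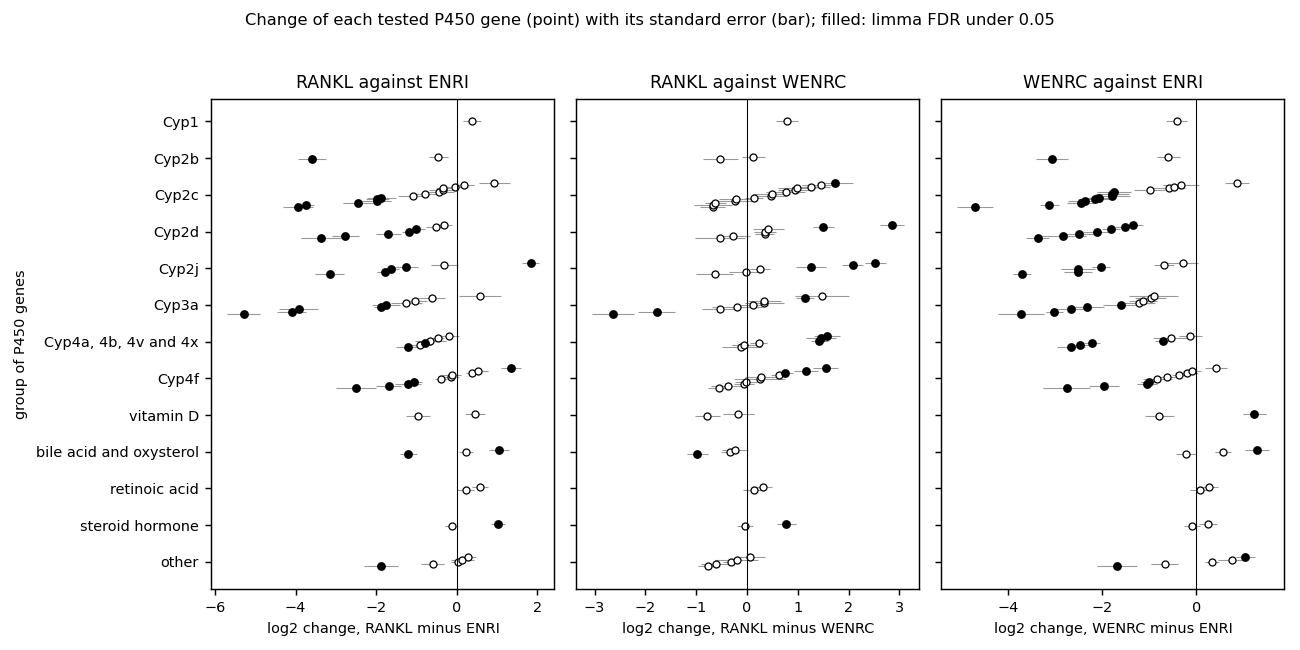
Each point is the log2 change of 1 tested P450 gene between the cultures named under each panel, with its standard error from limma, in rows by family or role. Filled points passed an FDR of 0.05 over all genes. Against ENRI, most points of Cyp2b to Cyp4f lie left of 0 in RANKL and in WENRC, down to -5.29 for Cyp3a25 in RANKL.

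The largest changes between RANKL and ENRI lay in the Cyp3a family, whose enzymes oxidise a large share of drugs. Cyp3a25, at chr5:146788770-146821194 (mm9, minus strand), was at 6.81 and 6.39 in RANKL, 11.53 and 12.26 in ENRI and 9.78 and 8.70 in WENRC. The 3 cultures did not overlap, and RANKL was lowest. The change was -5.29 ± 0.41 (SE) between RANKL and ENRI (FDR = 0.00215), -2.64 ± 0.41 between RANKL and WENRC (FDR = 0.0147) and -2.65 ± 0.41 between WENRC and ENRI (FDR = 0.0165). In the authors' deposited table, which is not drawn toward the mean in the same way, the change between RANKL and ENRI was -6.28. With single libraries left out, the change between RANKL and ENRI stayed between -5.65 and -4.92 and that between RANKL and WENRC between -3.18 and -2.10, with an FDR of up to 0.0523 and 0.162.

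Its neighbour Cyp3a59, at chr5:146890834-146924859 on the plus strand and 69.6 kb away, had the same order of cultures. It was at 4.85 and 4.47 in RANKL, 8.45 and 9.06 in ENRI and 6.86 and 6.01 in WENRC. The changes were -4.09 ± 0.36 between RANKL and ENRI (FDR = 0.00293), -1.78 ± 0.36 between RANKL and WENRC (FDR = 0.0312) and -2.32 ± 0.36 between WENRC and ENRI (FDR = 0.0166). The genes lie head to head and are near copies, so that reads may be shared between them. Their promoters are shown because these genes had the largest falls in RANKL against ENRI and match at 96.3% of 300 positions, as is that of Cyp3a11, the next gene in the cluster, which matches Cyp3a25 at 65.0%. The sequences are from RefSeq (GRCm38.p6), 5′ to 3′ on the gene's strand, from 250 bases before to 50 after the start: chr5:146009568-146009867 (minus) for Cyp3a25, chr5:146079008-146079307 (plus) for Cyp3a59 and chr5:145879805-145880104 (minus) for Cyp3a11. Capitals mark AGGTCA, a core bound by nuclear receptors, TGAACT and CAAAGTC on either strand.
Cyp3a25: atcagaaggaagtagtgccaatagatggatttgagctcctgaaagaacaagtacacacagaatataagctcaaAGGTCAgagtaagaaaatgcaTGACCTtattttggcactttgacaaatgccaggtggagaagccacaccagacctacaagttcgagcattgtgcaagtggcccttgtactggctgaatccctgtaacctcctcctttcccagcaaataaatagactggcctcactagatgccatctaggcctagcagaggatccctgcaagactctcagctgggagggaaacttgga
Cyp3a59: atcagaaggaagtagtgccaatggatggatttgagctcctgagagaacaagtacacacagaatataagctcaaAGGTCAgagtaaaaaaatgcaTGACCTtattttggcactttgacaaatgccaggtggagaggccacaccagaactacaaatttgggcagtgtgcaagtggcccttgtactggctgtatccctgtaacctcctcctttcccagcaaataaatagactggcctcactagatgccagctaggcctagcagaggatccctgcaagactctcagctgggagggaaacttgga
Cyp3a11: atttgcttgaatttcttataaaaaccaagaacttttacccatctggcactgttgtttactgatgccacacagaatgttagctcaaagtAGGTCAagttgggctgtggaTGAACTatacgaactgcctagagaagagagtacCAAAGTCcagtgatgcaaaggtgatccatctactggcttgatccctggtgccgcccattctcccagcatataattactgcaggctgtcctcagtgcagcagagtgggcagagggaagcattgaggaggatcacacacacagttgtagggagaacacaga

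Both near copies hold AGGTCA on each strand, spaced alike, and Cyp3a11 holds each of these motifs 1 time. The core AGGTCA was found in 25.6% of the 86 promoters of 76 P450 genes with an entry and in 16.3% of all 32851 promoters. TGAACT was found in 17.4% and 14.0%, and CAAAGTC, a core of sites read by the hepatocyte and enterocyte factor HNF4A, in 25.6% and 4.44%. GCGTG, the core of the site bound by the aryl hydrocarbon receptor, was found in 18.6% of P450 promoters and in 32.4% of all. These are matches of letters on both strands and not binding sites, and paralogs share sequence.

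No other Cyp3a gene was called lower in RANKL than in both other cultures. Cyp3a11, the main drug-metabolising Cyp3a of mouse liver and gut, was at 8.15 and 8.0 in RANKL, 11.26 and 12.74 in ENRI and 8.63 and 7.92 in WENRC. It was lower than ENRI by -3.92 ± 0.49 in RANKL (FDR = 0.00591) and by -3.73 ± 0.49 in WENRC (FDR = 0.0122), and the RANKL and WENRC libraries overlapped. Cyp3a13, which stands alone on the same chromosome outside the cluster, was at 11.08 and 11.24 in RANKL, 12.90 and 13.15 in ENRI and 10.16 and 9.85 in WENRC. Here RANKL lay between the other cultures, -1.87 ± 0.18 below ENRI (FDR = 0.00343) and 1.15 ± 0.18 above WENRC (FDR = 0.0146). Cyp3a57 was lower in RANKL than in ENRI (-1.75 ± 0.35, FDR = 0.0217), but not with only the 4 libraries compared (FDR = 0.0557). Cyp3a41a was lower in WENRC than in ENRI (-1.59 ± 0.38, FDR = 0.045), but not with libraries recentred on their upper quartiles (FDR = 0.0657), and it has 2 genomic copies. Cyp3a16, Cyp3a41b and Cyp3a44 passed in no comparison with limma on the values as deposited, with FDRs of 0.0566 or more. By the authors' adjusted p, Cyp3a16 was higher in RANKL than in WENRC (3.15, adjusted p = 0.000698). By the same measure Cyp3a41b was lower than ENRI in RANKL (-2.54, adjusted p = 0.0271) and in WENRC (-2.83, adjusted p = 0.0292), and Cyp3a44 passed in no comparison. With quantile normalization Cyp3a41b passed in RANKL against ENRI (-1.01, FDR = 0.034) and in WENRC against ENRI (-1.08, FDR = 0.0335).

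**Figure D3:**
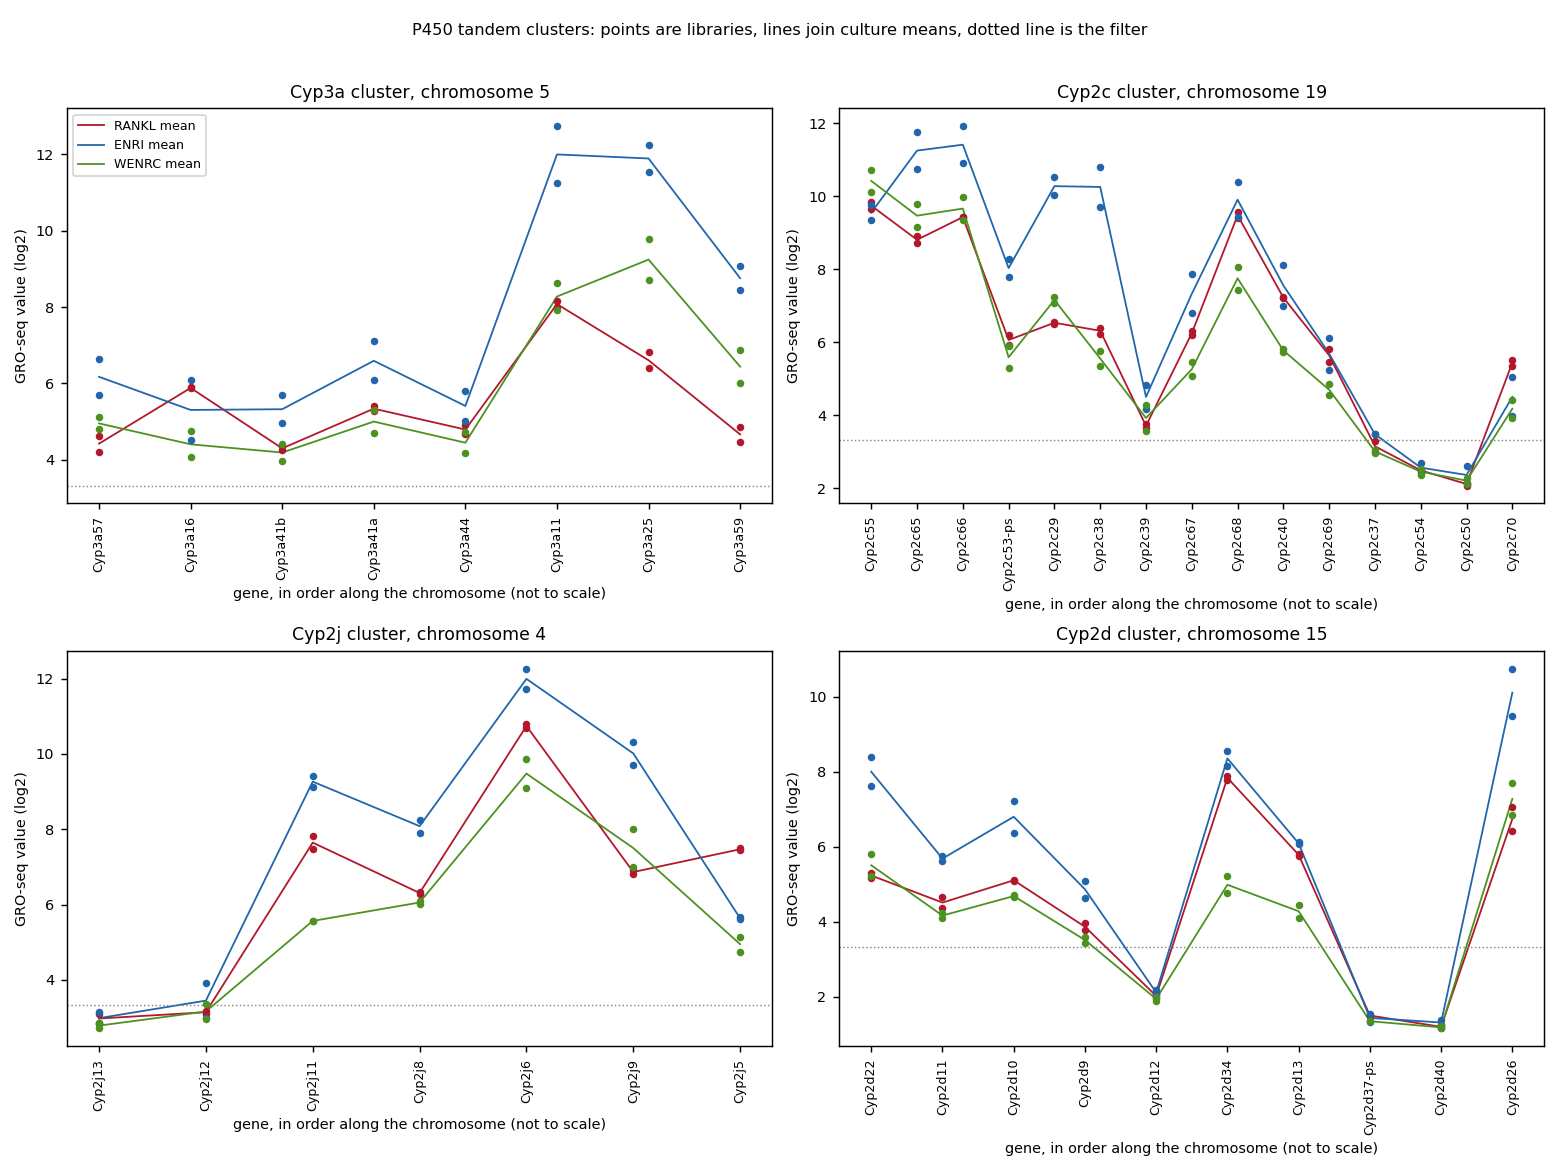
Each panel is 1 tandem cluster with its P450 genes in chromosomal order (not to scale). Points are libraries and lines join culture means on the log2 scale, and the dotted line is the filter. The ENRI line is uppermost over most of each cluster, the RANKL line falls below the WENRC line at Cyp3a25 and Cyp3a59, and it rises above the ENRI line at Cyp2j5.

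Cyp2c enzymes oxidise drugs and turn arachidonic acid into signalling epoxides. Cyp2c38 was at 6.39 and 6.23 in RANKL, 9.69 and 10.81 in ENRI and 5.33 and 5.77 in WENRC. It was lower than ENRI by -3.94 ± 0.38 in RANKL (FDR = 0.00344) and by -4.70 ± 0.38 in WENRC (FDR = 0.00624), the largest fall between WENRC and ENRI among the P450 genes. Cyp2c29 was at 6.56 and 6.50 in RANKL, 10.03 and 10.52 in ENRI and 7.08 and 7.23 in WENRC. Its change between RANKL and ENRI (-3.74 ± 0.20, FDR = 0.00104) was the one P450 call in that comparison that remained without each single library. Cyp2c65 and Cyp2c66, known from the intestine, were lower in RANKL than in ENRI by -2.44 ± 0.37 (FDR = 0.0108) and -1.98 ± 0.37 (FDR = 0.0172). Cyp2c66 was also lower in WENRC (-1.75 ± 0.37, FDR = 0.0318), but with the replicate number as a block its FDR was 0.0508.

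Not all genes of the Cyp2c cluster shared this order. Cyp2c55, the first gene of the cluster, stood at 9.64 and 9.83 in RANKL, 9.34 and 9.76 in ENRI and 10.72 and 10.11 in WENRC, and passed in no comparison with limma. By the authors' adjusted p it was lower in RANKL than in WENRC (-0.84, adjusted p = 0.00169). Cyp2c68 was at 9.39 and 9.55 in RANKL, 9.43 and 10.38 in ENRI and 8.07 and 7.43 in WENRC. RANKL and ENRI overlapped there, and RANKL was 1.73 ± 0.35 above WENRC (FDR = 0.0318). The motif CAAAGTC was found in the promoters of 10 of 13 Cyp2c genes with an entry, Cyp2c29, Cyp2c65, Cyp2c66 and Cyp2c68 among them, but not of Cyp2c38 or Cyp2c55. The Cyp2c65 promoter (chr19:39060756-39061055, plus strand, GRCm38.p6) is shown as an example, with CAAAGTC in capitals.
Cyp2c65: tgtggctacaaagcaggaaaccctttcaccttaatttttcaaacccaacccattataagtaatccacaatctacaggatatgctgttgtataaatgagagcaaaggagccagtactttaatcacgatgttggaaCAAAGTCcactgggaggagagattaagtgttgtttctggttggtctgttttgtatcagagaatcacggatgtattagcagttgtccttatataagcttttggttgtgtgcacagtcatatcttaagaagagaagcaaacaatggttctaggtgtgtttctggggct

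Cyp2b10, the classical target of the receptor CAR, was at 7.58 and 7.46 in RANKL, 10.64 and 11.58 in ENRI and 8.32 and 7.76 in WENRC. It was lower than ENRI by -3.59 ± 0.34 in RANKL (FDR = 0.00341) and by -3.07 ± 0.34 in WENRC (FDR = 0.00961). Nr1i3, the gene of CAR, was lower in RANKL than in ENRI by -1.11 ± 0.29 (FDR = 0.0436). Between WENRC and ENRI its change was -1.12 ± 0.29 and did not pass (FDR = 0.0524). None of the 7 genes of the Cyp2a, Cyp2e, Cyp2f and Cyp2g subfamilies, which are known from liver, airway and olfactory tissue, passed the filter (values -0.28 to 2.66).

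In the Cyp2d cluster on chromosome 15 all 7 tested genes were highest in ENRI, but RANKL stood near WENRC for some and near ENRI for others. Cyp2d26 was at 6.42 and 7.06 in RANKL, 9.48 and 10.73 in ENRI and 7.71 and 6.84 in WENRC, a change of -3.37 ± 0.49 between RANKL and ENRI (FDR = 0.00961). Cyp2d22, at the other end of the cluster, changed by -2.77 ± 0.33 (FDR = 0.00531). Between them, Cyp2d34 was at 7.89 and 7.78 in RANKL, 8.15 and 8.55 in ENRI and 5.21 and 4.75 in WENRC. Its RANKL libraries stood near those of ENRI (-0.52 ± 0.24, FDR = 0.175) and far above those of WENRC (2.85 ± 0.24, FDR = 0.00294), the largest rise between these cultures among the P450 genes. The next gene, Cyp2d13, 15.8 kb away, showed the same order at lower values, with 5.75 and 5.81 in RANKL, 6.06 and 6.11 in ENRI and 4.11 and 4.45 in WENRC. RANKL was 1.51 ± 0.20 above WENRC there (FDR = 0.00957). Cyp2d10 and Cyp2d11 have 2 genomic copies each, and reads may be split between such paralogs.

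The Cyp2j enzymes, epoxygenases of arachidonic acid, gave the clearest contrast between neighbours. Cyp2j5 was at 7.50 and 7.44 in RANKL, 5.66 and 5.61 in ENRI and 4.75 and 5.14 in WENRC. RANKL was above all other libraries, by 1.84 ± 0.21 against ENRI (FDR = 0.0046) and 2.52 ± 0.21 against WENRC (FDR = 0.00269). With either RANKL library left out, these FDRs rose to at most 0.0724 and 0.0613, and over all alternatives the changes stayed between 1.81 and 1.90 and between 2.33 and 2.72. Cyp2j9 lies on the same strand and starts 35.9 kb beyond the end of Cyp2j5. Its values were 6.92 and 6.81 in RANKL, 9.72 and 10.31 in ENRI and 8.0 and 7.0 in WENRC. It was lower in RANKL than in ENRI by -3.15 ± 0.36 (FDR = 0.00477), the reverse of Cyp2j5.

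Other Cyp2j genes stood between these extremes. Cyp2j11 was at 7.47 and 7.82 in RANKL, 9.11 and 9.42 in ENRI and 5.57 and 5.56 in WENRC. No culture overlapped another, and RANKL was intermediate, -1.62 ± 0.20 below ENRI (FDR = 0.00581) and 2.08 ± 0.20 above WENRC (FDR = 0.00427). Cyp2j6, the Cyp2j gene with the highest level per kb, had the same order, at 10.69 and 10.79 in RANKL, 11.74 and 12.25 in ENRI and 9.87 and 9.09 in WENRC. Its change between RANKL and WENRC (1.26 ± 0.30, FDR = 0.0474) did not pass with upper-quartile recentring (FDR = 0.0509), quantile normalization (FDR = 0.0511) or no filter (FDR = 0.0573).

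Family 4 enzymes hydroxylate fatty acids at the end of the chain. Cyp4b1, Cyp4a32 and Cyp4v3 were highest in ENRI, intermediate in RANKL and lowest in WENRC. Cyp4b1 was at 8.67 and 8.83 in RANKL, 9.51 and 10.40 in ENRI and 7.42 and 7.18 in WENRC. RANKL was 1.45 ± 0.30 above WENRC (FDR = 0.0315) and -1.21 ± 0.30 below ENRI (FDR = 0.0374), the latter not with only the 4 libraries compared (FDR = 0.0799). For Cyp4a32 the same change was 1.43 ± 0.17 (FDR = 0.00764) and for Cyp4v3, the mouse gene of human CYP4V2, 1.58 ± 0.26 (FDR = 0.0162). Cyp4f14 was at 8.24 and 8.45 in RANKL, 10.33 and 11.34 in ENRI and 8.76 and 7.42 in WENRC, lower in RANKL than in ENRI by -2.49 ± 0.50 (FDR = 0.0217).

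At the other end of the Cyp4f cluster, Cyp4f39 was highest in RANKL. Cyp4f39 is the mouse gene of human CYP4F22, which hydroxylates the very long fatty acids of the skin barrier. It was at 7.22 and 7.0 in RANKL, 5.51 and 6.02 in ENRI and 5.44 and 5.69 in WENRC. Every RANKL library lay above the other 4, by 1.35 ± 0.24 against ENRI (FDR = 0.0165) and 1.55 ± 0.24 against WENRC (FDR = 0.0152). The next gene, Cyp4f17, 13.1 kb on, was at 8.48 and 8.49 in RANKL, 8.17 and 8.02 in ENRI and 7.65 and 7.81 in WENRC, which gave a change of 0.76 ± 0.15 against WENRC (FDR = 0.0288) and 0.39 ± 0.15 against ENRI (FDR = 0.118). Cyp4f15 was also higher in RANKL than in WENRC (1.15 ± 0.24, FDR = 0.0315).

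**Figure D4:**
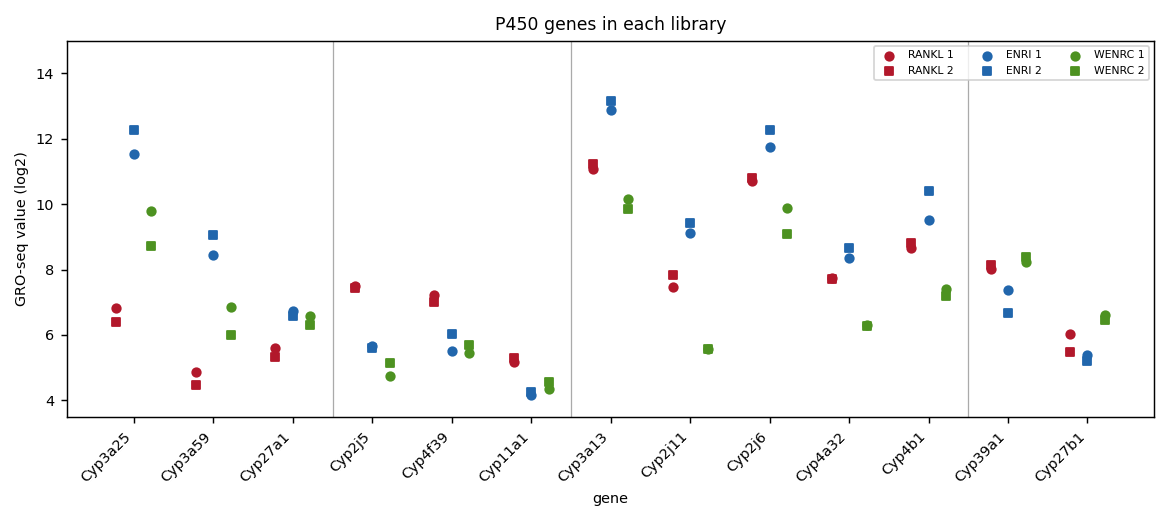
GRO-seq values (log2) of 13 P450 genes chosen for this plot after their values were seen, with 1 point per library. From left to right, lines separate genes lowest in RANKL, genes highest in RANKL, genes with RANKL between ENRI and WENRC, and genes lowest in ENRI. The Cyp3a25 points run from 6.39 in RANKL to 12.26 in ENRI, and the Cyp2j5 points of RANKL, 7.44 and 7.50, lie above all others of that gene.

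Few genes of steroid and sterol metabolism were transcribed above the filter, 2 of 6 steroid hormone genes and 3 of 6 bile acid and oxysterol genes. Cyp11a1, which cleaves the side chain of cholesterol in the first step of steroid hormone synthesis, was at 5.18 and 5.29 in RANKL, 4.17 and 4.24 in ENRI and 4.35 and 4.57 in WENRC. RANKL was 1.03 ± 0.18 above ENRI (FDR = 0.0161). Against WENRC the change of 0.77 ± 0.18 passed narrowly (FDR = 0.0483), and not with upper-quartile recentring (FDR = 0.0906), quantile normalization (FDR = 0.0523) or no filter (FDR = 0.0799). The later enzymes of that synthesis, Cyp11b1, Cyp11b2 and Cyp21a1, and the aromatase Cyp19a1 did not pass the filter (values -1.35 to 3.27). Cyp17a1 passed it at 3.48 to 3.66 and did not pass the test in any comparison.

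Cyp27a1, the mitochondrial sterol hydroxylase of the alternative bile acid pathway, was the third gene lowest in RANKL against both other cultures. It was at 5.60 and 5.33 in RANKL, 6.73 and 6.59 in ENRI and 6.59 and 6.29 in WENRC. RANKL was -1.20 ± 0.21 below ENRI (FDR = 0.0153) and -0.97 ± 0.21 below WENRC (FDR = 0.037), while ENRI and WENRC overlapped. With single libraries left out the second of these changes stayed between -1.12 and -0.83, with an FDR of up to 0.28. Cyp39a1, an oxysterol hydroxylase, was lowest in ENRI, at 7.36 and 6.67, against 8.0 and 8.14 in RANKL and 8.24 and 8.38 in WENRC. It was 1.05 ± 0.25 higher in RANKL (FDR = 0.0339, but 0.0811 with only the 4 libraries compared) and 1.29 ± 0.25 higher in WENRC (FDR = 0.0265). Cyp7b1, which acts on oxysterols too, was at 10.39 to 11.19 in all 6 libraries and passed in no comparison with limma on the values as deposited. It was higher in WENRC than in ENRI with upper-quartile recentring (0.68, FDR = 0.0304) or quantile normalization (0.90, FDR = 0.0181). With the latter it was lower in RANKL than in WENRC (-0.72, FDR = 0.0355), as it was by the authors' adjusted p (-0.39, adjusted p = 0.0172). Cyp7a1, the rate-limiting enzyme of bile acid synthesis in liver, and Cyp8b1 were below 0 in every library.

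Of the vitamin D genes, Cyp27b1, which makes the active hormone, was at 6.03 and 5.48 in RANKL, 5.39 and 5.22 in ENRI and 6.61 and 6.47 in WENRC. It was 1.24 ± 0.24 higher in WENRC than in ENRI (FDR = 0.0273). The change between RANKL and WENRC was -0.78 ± 0.24 and did not pass (FDR = 0.0942). Cyp2r1, which makes the circulating precursor, lay between 4.04 and 5.61 and passed in no comparison, and Cyp24a1, which inactivates the hormone, did not pass the filter (1.92 to 2.43). The retinoic acid hydroxylases Cyp26b1 and Cyp26c1 were at 5.68 to 6.41 and 5.47 to 5.94. Neither passed, except Cyp26b1 in RANKL against ENRI with quantile normalization (0.67, FDR = 0.049). Cyp26a1 was at 0.56 to 0.68.

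Cyp1a1 and Cyp1b1 are the classical targets of the aryl hydrocarbon receptor, the sensor of planar aromatic compounds. Cyp1a1 was at 4.93 and 4.87 in RANKL, 4.31 and 4.73 in ENRI and 3.97 and 4.25 in WENRC. Its change of 0.79 ± 0.22 between RANKL and WENRC did not pass with limma on the values as deposited (FDR = 0.074) but did with quantile normalization (0.77, FDR = 0.0408). By the authors' adjusted p, Cyp1a1 was higher in RANKL than in WENRC (2.45, adjusted p = 0.027). Cyp1b1 did not pass the filter (2.39 to 2.89). Ahr, the receptor gene itself, was at 10.67 and 10.80 in RANKL, 9.51 and 9.10 in ENRI and 9.09 and 9.01 in WENRC. It was 1.43 ± 0.17 above ENRI (FDR = 0.00539) and 1.69 ± 0.17 above WENRC (FDR = 0.00518). Tiparp, another target of the receptor, was lower in RANKL than in ENRI by -1.50 ± 0.21 (FDR = 0.0089).

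Among the 14 genes of the sensor list, which holds the receptors that act on P450 genes and their partners, 2 were higher and 3 lower in RANKL than in ENRI (10.4% and 10.5% of all tested genes were), and 3 were lower in WENRC than in ENRI (9.74% of all). Besides Ahr, Rarb, a retinoic acid receptor, was the other gene higher in RANKL (1.05 ± 0.24, FDR = 0.032). Nr1h4, the gene of the bile acid receptor FXR, was at 8.45 and 8.23 in RANKL, 10.73 and 11.44 in ENRI and 10.10 and 9.80 in WENRC. It had the same order as Cyp3a25, with changes of -2.75 ± 0.26 between RANKL and ENRI (FDR = 0.00341), -1.61 ± 0.26 between RANKL and WENRC (FDR = 0.0159) and -1.14 ± 0.26 between WENRC and ENRI (FDR = 0.0401). Nr1i2, the gene of the receptor PXR, was lower in WENRC than in ENRI (-0.95 ± 0.23, FDR = 0.0463), as was Rxra (-1.28 ± 0.18, FDR = 0.0136). Hnf4a stood between 12.41 and 13.30 and passed in no comparison.

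P450 enzymes need electrons and haem. Of the 6 electron partners, 4 were lower in RANKL than in ENRI, where 10.5% of all tested genes were, and 4 were lower in WENRC than in ENRI, where 9.74% were. Por, the oxidoreductase that serves the P450s of the endoplasmic reticulum, was at 10.50 and 10.57 in RANKL, 11.47 and 12.03 in ENRI and 10.84 and 10.41 in WENRC. It was lower than ENRI by -1.21 ± 0.24 in RANKL (FDR = 0.0204) and by -1.12 ± 0.24 in WENRC (FDR = 0.0328). Cyb5a and Cyb5b, the cytochromes b5, changed between RANKL and ENRI by -1.56 ± 0.30 (FDR = 0.02) and -1.17 ± 0.32 (FDR = 0.0485), and Fdx1, the ferredoxin of the mitochondrial P450s, by -0.91 ± 0.20 (FDR = 0.0279). Cyb5r3 was higher in RANKL than in WENRC (1.58 ± 0.24, FDR = 0.0139). Of the 8 haem synthesis genes, Alas1, the rate-limiting step, and Alad were lower in RANKL than in ENRI (-0.89 ± 0.19, FDR = 0.0251, and -0.99 ± 0.22, FDR = 0.0283). Cyp51 and Tbxas1, the tested P450 enzymes outside the name rule, had FDRs of 0.112 or more.

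H3K27me3 was compared between RANKL and WENRC only, as regions that the authors called in one culture with the other as control, at a fold of at least 2 in tags. Depth was 32.7 M tags in pooled RANKL and 36.3 M in WENRC, and there is no replicate check. The regions are given with the authors' nearest gene and its distance, on mm9. RANKL-higher regions lay within 5 kb of the start of 16 of the 103 P450 genes (15.5%), against 19.1% of all listed genes. WENRC-higher regions lay within 5 kb of 5 (4.85%), against 5.44%. Both shares of P450 genes were near the background. Within 1 kb of a start the counts were 10 (9.71%, against 10.5% of all listed genes) and 3 (2.91%, against 1.24%), and within 5 kb at a fold of at least 4 they were 5 (4.85%, against 3.04%) and 2 (1.94%, against 1.37%). At any distance, 84 RANKL-higher regions were assigned to 26 P450 genes (25.2%, against 33.7% of all listed genes), with folds of 2.01 to 5.55 and a median of 2.80, and 30 WENRC-higher regions to 19 (18.4%, against 24.0%), with a median of 3.30. Over all regions the medians were 2.92 and 3.30.

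The RANKL-higher regions were spread unevenly over the P450 loci. The Cyp2d cluster, 10 genes over 424 kb, held 33 of the 84 and 2 of the WENRC-higher regions. Cyp26b1 was assigned 10 RANKL-higher regions, at up to 60.12 kb from its start, and 2 WENRC-higher regions. The pair Cyp26a1 and Cyp26c1 was assigned 9 RANKL-higher regions, at up to 157.76 kb, and 3 WENRC-higher regions. Cyp46a1, the cholesterol hydroxylase of brain, held 6 RANKL-higher regions. The Cyp3a cluster over 819 kb held 1 RANKL-higher region, and the Cyp4f cluster over 513 kb held 4 WENRC-higher regions. The Cyp3a25 and Cyp3a59 loci, where RANKL had the lowest transcription of the 3 cultures, had no region of either kind assigned to them.

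**Figure D5:**
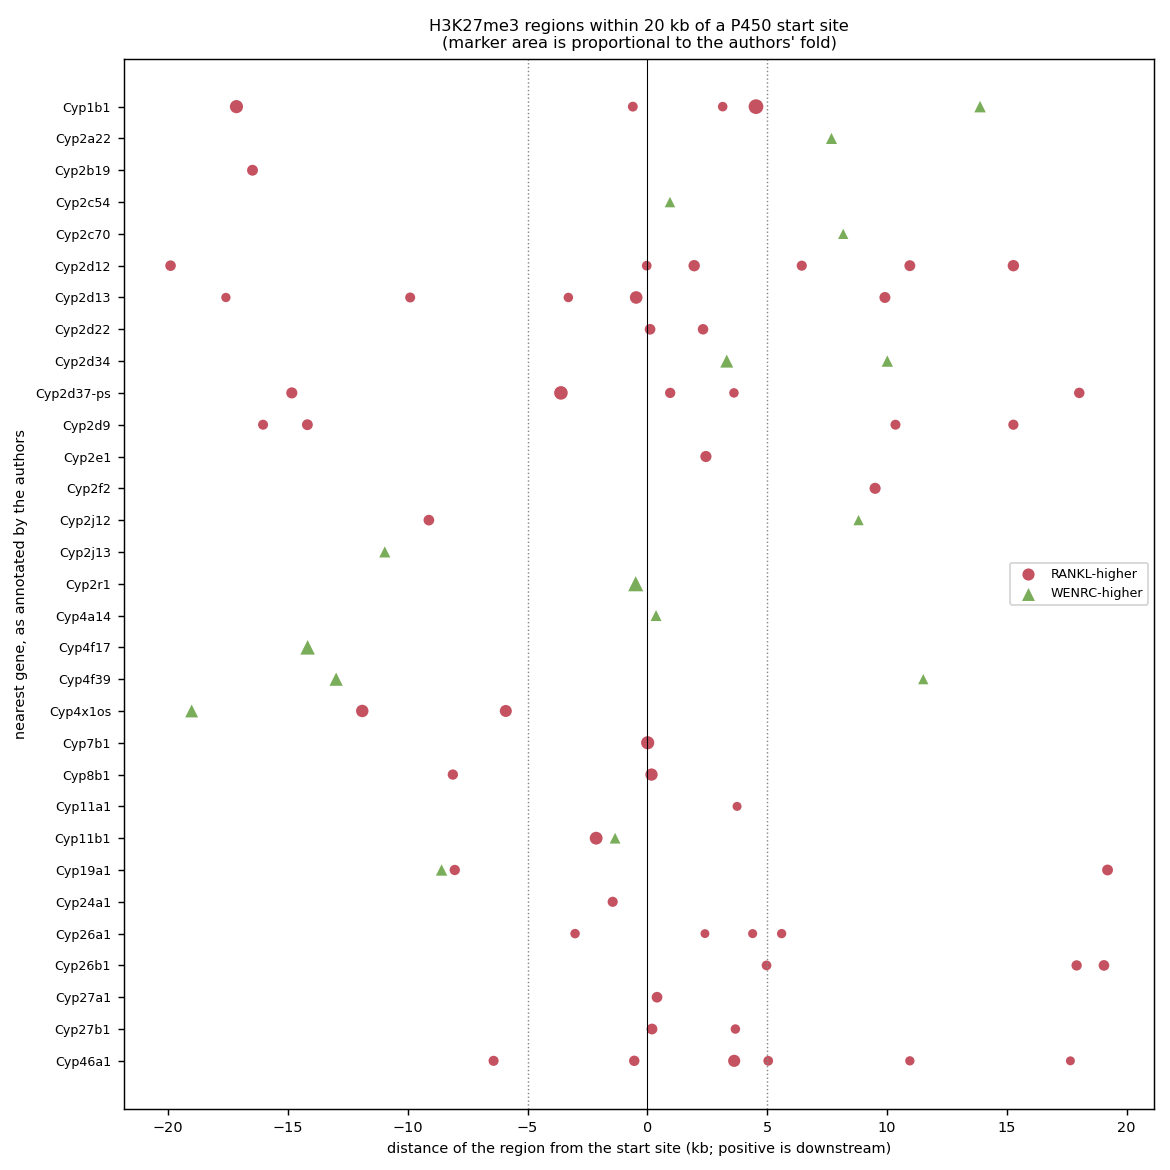
H3K27me3 regions within 20 kb of a P450 start site, by distance in kb (positive is downstream) and nearest gene. Circles are RANKL-higher regions (56), triangles are WENRC-higher regions (16), the marker area is proportional to the authors' fold (2.02 to 5.85), and dotted lines mark 5 kb. Circles crowd at the Cyp2d, Cyp26a1 and Cyp46a1 genes.

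Of the 16 P450 genes near a RANKL-higher region, 9 (56.2%) did not pass the GRO-seq filter, against 33.0% of all 103 P450 genes, 36.2% of all listed genes near one and 32.4% of all listed genes. These 9 were Cyp46a1, Cyp11b1, Cyp2d12, Cyp2d37-ps, Cyp1b1, Cyp26a1, Cyp24a1, Cyp2e1 and Cyp8b1. At the start of Cyp46a1 a region of 3447 bp (chr12:109570255-109573702, promoter) held 196 RANKL tags against 70.2 scaled WENRC tags, a fold of 2.79. At Cyp8b1, which makes cholic acid in liver, a region over its only exon (chr9:121824679-121825828) held 49 against 12.6, a fold of 3.89. At Cyp1b1 there were 3 such regions within 5 kb, with folds of 2.35, 2.49 and 5.55.

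Of these genes, 7 were tested: 2 were transcribed higher in RANKL than in WENRC (Cyp11a1 and Cyp2d13), 1 was lower (Cyp27a1) and 4 were not called (Cyp27b1, Cyp2d22, Cyp7b1 and Cyp26b1). At Cyp27a1 the region spanned the start (chr1:74759821-74761201), and its centre lay 0.40 kb downstream, in intron 1. It held 90 RANKL tags against 30.6 scaled WENRC tags, a fold of 2.94. At Cyp27b1 a region covered exon 1 (chr10:126484947-126486041), with 97 against 32.4, a fold of 2.99, and a further region lay in intron 8. At Cyp7b1 the promoter region (chr3:18143076-18143576) held 20 against 4.5 tags, a fold of 4.44. The gene was transcribed at 10.83 and 10.79 in RANKL and at 11.19 and 11.10 in WENRC. Its change of -0.33 ± 0.17 did not pass with limma (FDR = 0.253), but by the authors' adjusted p the gene was lower in RANKL (-0.39, adjusted p = 0.0172). At Cyp2d13 the fold at the promoter was 4.07 while transcription was higher in RANKL.

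Of the 5 genes near a WENRC-higher region, Cyp2d34 and Cyp2r1 were tested. In Cyp2d34 the region lay in exon 5 (chr15:82447778-82448278), with 5 RANKL tags against 21.6 scaled WENRC tags, a fold of 4.32, and transcription was higher in RANKL by 2.85. At Cyp2r1 the region was at the promoter (chr7:121706723-121707223), with 4 against 23.4 tags, a fold of 5.85, and the change in transcription was -0.17 ± 0.31 (FDR = 0.759). The other 3 were Cyp11b1, Cyp2c54 and Cyp4a14, all untested, and Cyp11b1 had a region of each kind within 5 kb.

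P450 promoters were poor in CG dinucleotides, whereas Polycomb marks are known to settle in CG-rich stretches. The median was 2.5 CG per 300 bases over 86 P450 promoters and 7.0 over all 32851. Only 9 of the 16 P450 genes with a RANKL-higher region within 5 kb had a promoter entry. Their 10 promoters had a median of 8.0, and the other 76 one of 2.0. At least 10 CG were held by 40.0% of those 10 promoters, 7.89% of the other 76 and 43.5% of all promoters. Whether CG content has a part in where the regions lie was not tested. The promoters of Cyp27a1 (10 CG), Cyp27b1 (2 CG) and Cyp2r1 (22 CG) are shown because a region lay over or beside each start, with every CG in capitals. They are from RefSeq (GRCm38.p6), 5′ to 3′ on the gene's strand, at chr1:74713285-74713584 (plus), chr10:127047996-127048295 (plus) and chr7:114562923-114563222 (minus). The regions above are on mm9, and the builds were not converted.
Cyp27a1: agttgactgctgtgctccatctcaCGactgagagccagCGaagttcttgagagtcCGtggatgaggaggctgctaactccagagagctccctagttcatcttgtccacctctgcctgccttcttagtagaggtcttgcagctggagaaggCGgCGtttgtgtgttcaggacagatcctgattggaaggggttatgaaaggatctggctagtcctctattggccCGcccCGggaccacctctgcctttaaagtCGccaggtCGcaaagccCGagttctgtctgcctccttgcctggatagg
Cyp27b1: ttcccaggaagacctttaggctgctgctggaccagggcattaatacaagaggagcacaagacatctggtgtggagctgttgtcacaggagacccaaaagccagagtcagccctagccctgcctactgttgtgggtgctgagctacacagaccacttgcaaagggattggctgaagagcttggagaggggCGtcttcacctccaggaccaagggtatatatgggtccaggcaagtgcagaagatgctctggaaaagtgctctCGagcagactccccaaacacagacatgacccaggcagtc
Cyp2r1: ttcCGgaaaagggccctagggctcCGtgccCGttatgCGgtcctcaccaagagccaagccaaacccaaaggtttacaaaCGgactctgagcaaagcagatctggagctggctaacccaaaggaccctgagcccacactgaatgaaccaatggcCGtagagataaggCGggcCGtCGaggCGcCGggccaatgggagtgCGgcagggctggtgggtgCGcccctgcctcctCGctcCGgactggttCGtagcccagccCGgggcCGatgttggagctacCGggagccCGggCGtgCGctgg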

How the data were processed

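Members, lists and motifs were chosen with earlier results of these data known. Per the file headers, the authors summed GRO-seq reads over whole RefSeq genes of mm9 with HOMER and deposited normalized log2 values; the submitters' processing notes name Bowtie2 2.3.4.1, HOMER and DESeq2. The transform resembles a regularized logarithm and was inferred from the values. Strand handling is not given in the sources used here, so overlapping genes (4 members overlap another listed gene) and near-identical paralogs are uncertain. The authors' deposited fold changes are log2 and come with adjusted p-values. Their sign was turned to first-named minus second-named.

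For H3K27me3, per the file headers, the authors called regions with HOMER, each culture against the other. Deposited RANKL tags are whole counts; WENRC tags are a signal that the authors scaled by 0.9, with a floor of 0.5, before they deposited it. The deposited fold is a ratio of tags.

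Limma 3.58.1 (R 4.3.3, variance trend, no pseudocount) was fitted to the deposited log2 values of 6 libraries as 3 group means, over 16563 genes with at least 2 libraries at log2 of 10 or more. Two-sided p-values were adjusted over all of them (Benjamini-Hochberg); a gene was called at FDR under 0.05. The design listed edgeR for counts, which these files do not hold. The fit was tested on simulated data. ENRI and WENRC libraries are paired by mouse, per the labels; RANKL numbers name libraries only. Level per kb is the log2 value minus log2 of gene length in kb. Tandem clusters join P450 genes less than 500 kb apart. Named genes were the called members (up to 12 a direction by size), Cyp3a genes, the 8 highest per kb, members with an H3K27me3 region within 5 kb, and members of vitamin D, retinoic acid, bile acid, steroid and aryl hydrocarbon pathways; Cyp2c55, Cyp2j9 as a neighbour, and the genes of the plot by library were chosen after their values were seen. GRO-seq depth is unknown, so no interval that needs it is given.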

Additional observations from a re-analysis of the deposited data

How the results depend on the processing

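No called change of a named P450 gene reversed sign under any alternative run. In RANKL against ENRI, 33 P450 genes were called, and 1 to 49 with single libraries left out, and 24 with only the 4 libraries compared, which ended the calls of Cyp3a57, Cyp4a32, Cyp4b1 and Cyp39a1 among the named genes; without both libraries of mouse 1 (an alternative chosen after seeing the data, as are the mouse blocks below) 54 were called. In RANKL against WENRC, 17 were called, and 0 to 31 with single libraries left out, 32 with only the 4 libraries compared, 38 without mouse 1 and 29 by the authors' adjusted p. In WENRC against ENRI, 38 were called, and 0 to 53 with single libraries left out, and 0 with only the 4 libraries compared, where limma called no gene at all and 46 P450 genes had an unadjusted p under 0.05. Where a lone library stood for a culture, it was assumed to vary like the others. The median change of the P450 genes stayed between -1.01 and -0.45, 0.14 and 0.21, and -1.42 and -0.76 in the 3 comparisons with single libraries left out, and was -0.18, 0.04 and -0.41 with no filter on low values. With the replicate number as a block, the counts were 31, 14 and 34, with a mouse term in ENRI and WENRC only 44, and with the mouse as a block in those 4 libraries alone 10. The block for the replicate number ended the calls of Cyp2j6 in both RANKL comparisons (FDR = 0.0538 and 0.0746) and Cyp39a1 in RANKL against ENRI (0.0511). It also ended those of Cyp11a1 in RANKL against WENRC (0.0754) and Cyp2c66 in WENRC against ENRI (0.0508), and added Cyp3a41a in RANKL against ENRI (0.038). Recentring on upper quartiles moved the median of all genes to -0.12 in RANKL against WENRC and to 0.10 in WENRC against ENRI. Of all called genes 53.3% and 54.1% were then higher, against 70.2% and 33.2% without it. In the second comparison the called set thus passed from mostly lower to mostly higher. That set also grew from 2416 to 3043 genes, and changes of sign in single genes were not counted. For P450 genes the splits after recentring were 12 higher and 4 lower, and 5 higher and 32 lower. Within 1 kb of a start, 10 P450 genes had a RANKL-higher and 3 a WENRC-higher region; at any distance the counts were 26 and 19, and at a fold of at least 4 they were 5 and 2. With 2 libraries a culture and unknown GRO-seq depth, single calls near the threshold are uncertain.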
